A study of Drosophila melanogaster with 24 samples.

Results

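Open chromatin of pupal Drosophila melanogaster wings lacking E93 was compared between 44 h and 24 h after puparium formation (APF). The members were all peaks of the 2 deposited E93 mutant FAIRE-seq lists of these times, 22786 peaks at 44 h and 26239 at 24 h, which made 49025 of the 183658 peaks in the 7 lists examined. A 44 h peak that overlapped no 24 h peak by 1 bp or more is called late-opening here, and a 24 h peak that overlapped no 44 h peak is called late-closing. These names say only in which list a peak was called, since each list was made by the authors from pooled replicates and no spread between replicates can be computed.

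The series followed open chromatin through metamorphosis of the wing, with FAIRE-seq of mutant and wild-type wings from the third larval instar (L3) and both pupal times, and ChIP-seq of tagged E93 at 24 h. The mutant carried the allele E93-4 over the deficiency Df(3R)93FX2, so that the chromosome opposite the allele lacks a stretch of 3R, with whatever other genes it holds. The wild type was w1118/y,w, hs-FLP; + ; +, and the ChIP-seq wings came from yw/+; + ; Mi{MIC}Eip93F/+, in which an insertion tags one copy of E93 and the antibody was against GFP. Each FAIRE-seq sample held at least 40 wings of staged females. The mutant lists pooled 2 replicates and the wild-type lists 3, no other allele or background control was analysed here, and each wing held all of its cell types, so a site open in fewer cells and a site less open in every cell cannot be told apart. Genotype and genetic background can therefore not be told apart in any comparison with the wild type.

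FAIRE-seq recovers DNA that is not held by nucleosomes after crosslinking, so its peaks mark enhancers, promoters and other open sites. E93 is a DNA-binding transcription factor whose gene responds to ecdysone, the steroid hormone that drives metamorphosis. It is known as a temporal factor of the pupal wing, at some sites needed for larval enhancers to close and at others for pupal enhancers to open. Around the earlier time wing cells leave the cell cycle for good, and by the later time they differentiate and form wing hairs.

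The 2 mutant lists differed in depth, which bears on every count below. Pileup, the number of extended reads stacked at a peak's summit, reached 8 to 204 (median 24) in the 44 h list, against 12 to 211 (median 29) in the 24 h list. The background level, the lowest local background that recurs across a list, was 2.91 reads at 44 h and 4.87 reads at 24 h. Their ratio was 0.597, and the median ratio of local background at the 4600 pairs of summits within 10 bp of each other was also 0.597 (5th to 95th percentile 0.557 to 0.640). All lists share the genomic DNA control, so this match would follow from its scaling and is no separate measure of depth. By the ratio of background levels, each read of the 44 h list was taken to stand for 1.67 reads of the 24 h list. Pileups divided by the background level are called scaled pileups. The number of reads behind each list is unknown, and the mutant L3 list had a background level of 5.67.

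Of the 44 h peaks, 5072 of 22786 were late-opening (22.3%, exact 95% binomial interval 21.7 to 22.8%). Of the 24 h peaks, 8731 of 26239 were late-closing (33.3%, 32.7 to 33.8%). In wild-type wings the same match left 28.8% of the 44 h peaks without a 24 h peak and 30.9% of the 24 h peaks without a 44 h peak. The mutant therefore had more late-closing than late-opening peaks in number and share, and the wild type had shares that lay closer together. These intervals, like all intervals beside shares here, cover counting error only, and the deeper mutant list is the one with the larger share, so depth and time cannot be told apart in the difference between the 2 mutant shares. With the lists set to equal size the shares were 25.8% late-opening and 27.1% late-closing.

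Changed peaks were short and weak. Late-opening peaks had a median length of 177 bp, against 296 bp for 44 h peaks found at both times, and their median pileup was 16 reads, against 29 reads. Late-closing peaks had a median length of 173 bp, against 309 bp for 24 h peaks found at both times, and their median pileup was 21 reads, against 40 reads. Late-opening peaks covered 1.09 Mb, or 14.6% of the 44 h list's length, and late-closing peaks covered 1.84 Mb, or 21.6% of the 24 h list's length. In base pairs as in counts, most open chromatin of the mutant wing was called at both times.

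The share of changed peaks was lower at each step of strength. From the weakest to the strongest quartile of the 44 h list by pileup, 43.9%, 28.3%, 13.0% and 2.58% of the peaks were late-opening. From the weakest to the strongest quartile of the 24 h list, 68.6%, 43.5%, 18.3% and 2.72% were late-closing. The strongest quartiles left 148 late-opening and 179 late-closing peaks, with pileups of at least 46 and at least 54 reads. Their median lengths of 474.5 bp and 473 bp were close to the 487 bp and 492 bp of the other peaks of the same quartiles, so much of the shortness of changed peaks went with their low pileup. In the other quartiles changed peaks were somewhat shorter at matched pileup, as in quartile 2, with 186 bp against 218 bp at 44 h and 174 bp against 201 bp at 24 h.

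**Figure D1:**
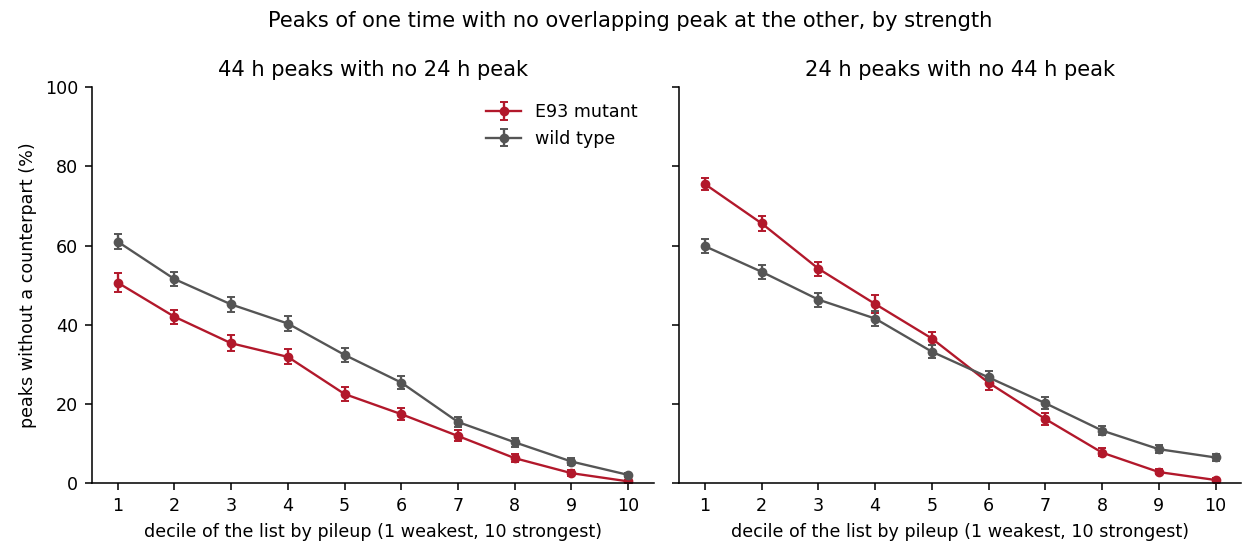
Share of peaks without an overlapping peak at the other time (y axis, percent) by decile of the list by pileup (x axis, 1 weakest to 10 strongest), for 44 h peaks (left) and 24 h peaks (right) of E93 mutant (red) and wild type (grey); bars are exact 95% intervals. In the strongest decile, 0.488% of mutant and 2.12% of wild-type 44 h peaks, and 0.835% of mutant and 6.52% of wild-type 24 h peaks, had no counterpart.

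At the top of the lists the mutant had few changes. In the strongest decile of the 44 h list, 11 of 2255 mutant peaks were late-opening (0.488%, 0.244 to 0.871%), against 61 of 2872 wild-type peaks (2.12%, 1.63 to 2.72%). In the strongest decile of the 24 h list, 22 of 2636 mutant peaks were late-closing (0.835%, 0.524 to 1.26%), against 191 of 2929 wild-type peaks (6.52%, 5.65 to 7.48%). The intervals of mutant and wild type did not overlap, but they count peaks of 1 pooled list each and are no test between genotypes. The lists also differed in depth and in replicates pooled. Background levels were 2.91 at 44 h and 4.87 at 24 h in the mutant (2 replicates each). In wild type the level was 10.6 at both times (3 replicates each). The ChIP-seq list had the same level, and the authors' caller had scaled down the pileups of all 3 lists. The equal level therefore does not show that the 2 wild-type lists were equally deep before scaling. Among the weakest deciles the order was the same for late opening, with 50.7% in the mutant and 61.0% in the wild type, and the opposite for late closing, with 75.5% in the mutant and 59.9% in the wild type.

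Depth limits how many of the weak changes can be read. At the depth of the 24 h list the late-opening peaks would have had a median of 26.8 reads, and 1802 of them (35.5%) would have stood above 31 reads, the highest pileup of any weakly called 24 h peak (−log10 q under 2). At the depth of the 44 h list the late-closing peaks would have had a median of 12.5 reads, and 1939 of them (22.2%) would have stood above the corresponding limit of 16 reads. All 148 late-opening and all 179 late-closing peaks of the strongest quartiles lay above these limits, at 77.0 to 164 reads and 32.2 to 76.4 reads. These limits are strict, since weakly called peaks had median pileups of 15 reads at 24 h and 9 reads at 44 h. The rescaling also leaves in the median log2 difference of 0.33 in scaled pileup that is described below. For peaks below the limits, depth could leave a peak of the other time uncalled. How many of the missing peaks this covers was not tested.

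Many changed peaks lay beside a peak of the other time. The nearest 24 h peak was at a median of 838.5 bp from late-opening peaks, and 1715 of 5072 (33.8%) had one closer than 500 bp. The nearest 44 h peak was at a median of 1248 bp from late-closing peaks, and 2363 of 8731 (27.1%) had one closer than 500 bp. Few cases turned on single bases. An overlap of 25 bp or less kept 31 peaks out of the late-opening group (median pileup 13), and 24 late-opening peaks missed a 24 h peak by under 25 bp (median pileup 13). In the 24 h list these numbers were 40 (median pileup 18) and 39 (median pileup 20).

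The changed peaks were spread over all arms. The late-opening share lay between 20.7% on 2L and 23.2% on 3L, with 22.0% on 2R, 22.6% on 3R and 22.5% on X. The late-closing share lay between 32.1% on 2R and 35.3% on 2L, with 34.0% on 3L and 32.5% on both 3R and X. On the small chromosome 4, which is largely heterochromatic, 6 of 44 peaks were late-opening (13.6%, 5.17 to 27.4%) and 36 of 74 were late-closing (48.6%, 36.9 to 60.6%). None of the changed peaks of chromosome 4 was in the strongest quartile of its list. Arm 3R, which carries the deficiency, had shares within the range of the other large arms. A share over the whole arm cannot show an effect of the deficiency, which covers a stretch of it and was present at both mutant times.

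Locally the changes were uneven. Over the 882 windows of 100 kb with at least 10 peaks at 44 h the median late-opening share was 20.0% (interquartile range 14.3 to 29.4%), and over 938 such windows at 24 h the median late-closing share was 32.3% (25 to 41.2%). The window with the most late-opening peaks, chr3R:5700001-5800000 (build dm3), had 31 of 63, of which 13 also opened late in wild type. The window with the most late-closing peaks, chr3L:12600001-12700000, had 32 of 47, of which 17 also closed late in wild type and 27 had a mutant L3 peak. Its late-closing peaks had pileups of at most 56 reads. Of the 31 late-opening peaks of the 3R window, 7 had a mutant L3 peak. Over the genome, 53.4% of late-closing and 74.5% of all 24 h mutant peaks had a mutant L3 peak. For late-opening and all 44 h mutant peaks it was 30.6% and 73.1%. These windows were picked for their number of changed peaks.

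Next, each changed mutant peak was looked up in the wild-type lists of the same times. Of the 5072 late-opening peaks, 1575 (31.1%, 29.8 to 32.3%) overlapped a wild-type peak at 44 h and none at 24 h, the same change as in the mutant. Over all 44 h mutant peaks this share was 10.5%, and over those found at both times it was 4.63% (821 of 17714). Another 1953 (38.5%) overlapped wild-type peaks at both times, 1207 (23.8%) at neither time, and 337 (6.64%) at 24 h only. Over all 44 h mutant peaks these shares were 69.9% at both times, 9.51% at neither time and 10.1% at 24 h only. The lists of mutant and wild type are separate samples, so the shared changes did not come from shared reads, although all lists share the genomic DNA control.

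Of the 8731 late-closing peaks, 2765 (31.7%, 30.7 to 32.7%) overlapped a wild-type peak at 24 h and none at 44 h. Over all 24 h mutant peaks this share was 17.3%, and over those found at both times it was 10.1% (1777 of 17508). The largest group of late-closing peaks, 3906 (44.7%), overlapped no wild-type peak at either time. A further 1549 (17.7%) overlapped wild-type peaks at both times, and 511 (5.85%) at 44 h only. Over all 24 h mutant peaks these shares were 18.4% at neither time, 59.1% at both times and 5.24% at 44 h only. A missing wild-type counterpart was thus more frequent in the 24 h than in the 44 h mutant list as a whole. Late-closing peaks without one were weak, with a median pileup of 18 reads, against 24 reads for those that also closed late in wild type.

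**Figure D2:**
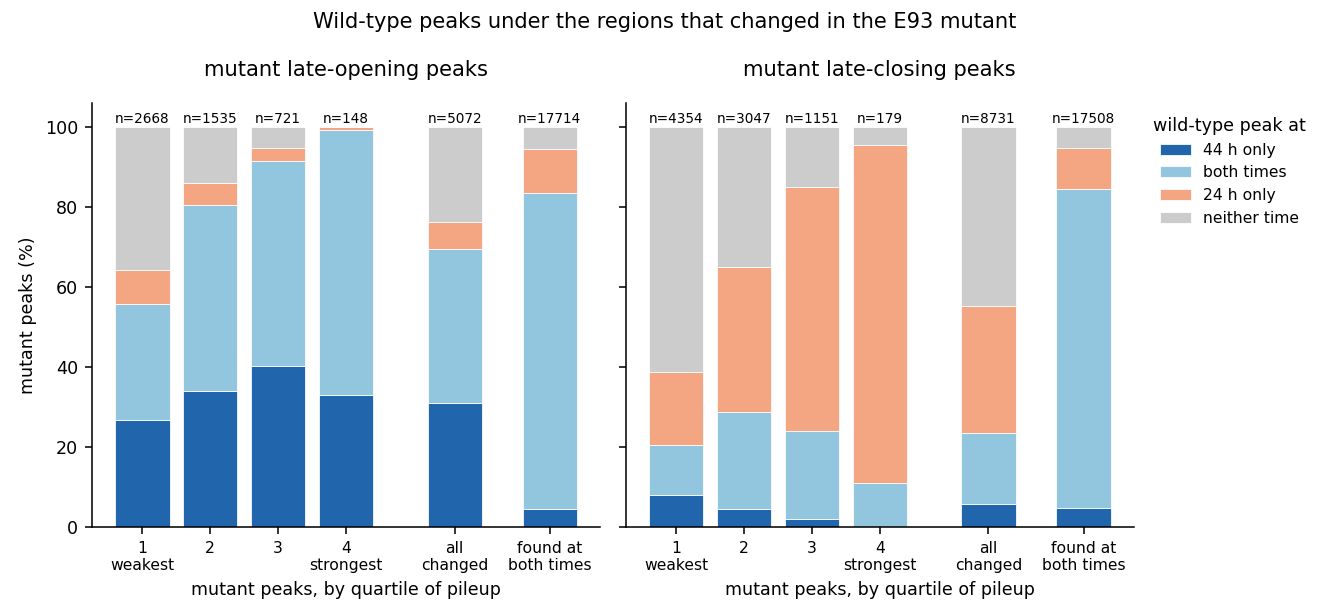
Wild-type pattern of mutant late-opening (left) and late-closing (right) peaks, as percent of peaks (y axis), by quartile of mutant pileup, for all changed peaks and for peaks found at both times; colours give the times at which a wild-type peak overlapped. In the strongest quartiles 33.1% of late-opening and 84.4% of late-closing peaks had the same change by list in wild type, and 66.2% of late-opening peaks had a wild-type peak at both times.

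In the strongest quartiles nearly every site had the same direction in wild type, by list or by rank. Of the 179 strong late-closing peaks, 151 (84.4%, 78.2 to 89.3%) closed late in wild type, 20 had wild-type peaks at both times, 8 at neither and 0 at 44 h only, where 3 counts, the limit that a count of 0 allows, would be 1.68%. In 19 of the 20 with wild-type peaks at both times, the wild-type peak stood lower in its list at 44 h than at 24 h, with median percentiles of pileup of 30.3 at 44 h and 75.7 at 24 h. Of the 148 strong late-opening peaks, 49 (33.1%, 25.6 to 41.3%) opened late in wild type, 98 had wild-type peaks at both times, 1 at 24 h only and 0 at neither, where 3 counts would be 2.03%. In 93 of the 98 the wild-type peak stood higher in its list at 44 h than at 24 h, with median percentiles of 89.0 at 44 h and 45.2 at 24 h.

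Counting both a peak gained by list and a wild-type peak that stood higher at the later time, 142 of 148 strong late-opening peaks (95.9%, 91.4 to 98.5%) went the same way in wild type. Of the strong 44 h peaks found at both times in the mutant, 53.9% met the same criterion. For late closing the numbers were 170 of 179 (94.97%, 90.7 to 97.7%), against 61.7% of the strong 24 h peaks found at both times. Over all strengths the shares were 58.7% for late-opening and 41.9% for late-closing peaks, against 43.4% and 49.9% of the peaks found at both times. The low value for late-closing peaks goes with the many weak ones that had no wild-type peak at either time.

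The 3 strongest late-opening peaks of each wild-type pattern show what these groups look like. Their pileups are given as in each list, and of the FAIRE-seq lists those of wild type at 44 h and 24 h had the same background level, 10.6, so heights in other pairs of FAIRE-seq lists are not comparable read for read. The highest of all, chrX:6799317-6800464, 1148 bp long, had a pileup of 98 reads at 44 h (rank 600 of 22786) and no peak at 24 h, where 164 reads would match its height. In wild type it was at 135 at 44 h and 52.7 at 24 h, in the middle of the 24 h list. The next of this pattern, chrX:17608900-17609434 (88 reads) and chr3R:20602403-20602890 (87 reads), also had a wild-type peak at both times. Their wild-type pileups were 129 at 44 h and 45.7 at 24 h on X, and 146 at 44 h and 46.9 at 24 h on 3R, where the 44 h peak was number 62 of its list. None of these 3 sites had a peak at L3 in either genotype, and none had an E93 ChIP-seq peak.

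Late-opening peaks with the same change by list in wild type were led by chr3L:17953298-17953902, with 81 reads at 44 h in the mutant and 74.6 in wild type. It was followed by chr3R:9641806-9642703, with 75 reads in the mutant and 58.6 in wild type, and by chr3L:10199564-10200139, with 72 reads in the mutant and 121 in wild type. Of these only the site at chr3R:9641806-9642703 had been open at L3, with 24 reads in the mutant and 36 in wild type. Where wild type had no peak at either time, the strongest late-opening peaks were weaker, with 44 reads at chr3L:5602880-5603332 and 40 reads at both chrX:18287501-18287706 and chr3R:10311997-10312279. Those 3 had no overlapping peak in any other list, so that mutant 44 h wings were the only sample set in which they were called.

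The strongest late-closing peak, chr3R:15136093-15136725, was a larval site. In the mutant its pileup was 140 reads in the larva and 128 reads in the 24 h list (rank 409 of 26239), with no 44 h peak. In wild type it was 195 in the larva and 118 in the 24 h list, again with no 44 h peak. An E93 ChIP-seq peak with a pileup of 43.9 lay over it. The next of this pattern, chr2L:18458514-18459144 and chr3R:13032732-13033238, had 116 and 109 reads at 24 h in the mutant and a pileup of 100.75 each in wild type. Both had an E93 ChIP-seq peak, and the 3R site had no mutant L3 peak and only a weak wild-type one of 26.

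The 3 strongest late-closing peaks with a wild-type peak at both times stood lower in wild type at 44 h, as did 895 of all 1549 peaks of this pattern by rank (57.8%). Among 24 h peaks found at both mutant times with wild-type peaks at both times, 6968 of 13947 (50.0%) did so. At chr3R:12878212-12878602, with 108 reads at 24 h in the mutant, wild type had 41.9 at 44 h and 97.8 at 24 h. At chr3L:382237-382965, with 98 reads, wild type had 59.3 at 44 h and 96.1 at 24 h, and at chrX:18761112-18761561, with 80 reads, it had 29.3 at 44 h and 72.4 at 24 h. All 3 had L3 peaks in both genotypes, and the 2 autosomal sites also had an E93 ChIP-seq peak.

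A few strong late-closing sites had already closed by 24 h in wild type. The leading one, chr3L:5620829-5621473, was an L3 peak in the mutant (104 reads), which persisted at 24 h (112 reads) and was gone at 44 h. Wild type had 148 at L3 and nothing called afterwards. The same pattern held at chr2R:11730385-11730734, with 48 reads at L3 and 74 at 24 h in the mutant and 78 at L3 in wild type, and at chr3R:11936272-11937211, with 70 reads at L3 and 69 at 24 h in the mutant and 99 at L3 in wild type. All 8 strong late-closing peaks without a wild-type peak at 44 h or 24 h had a mutant L3 peak, and 1 of them had an E93 ChIP-seq peak. Among the 26 strong 24 h peaks found at both mutant times with no wild-type peak at either, 25 had a mutant L3 peak and 4 a ChIP-seq peak, so neither count set the late-closing ones apart. The 3 larval sites named here were called one stage longer in the mutant than in wild type.

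**Figure D3:**
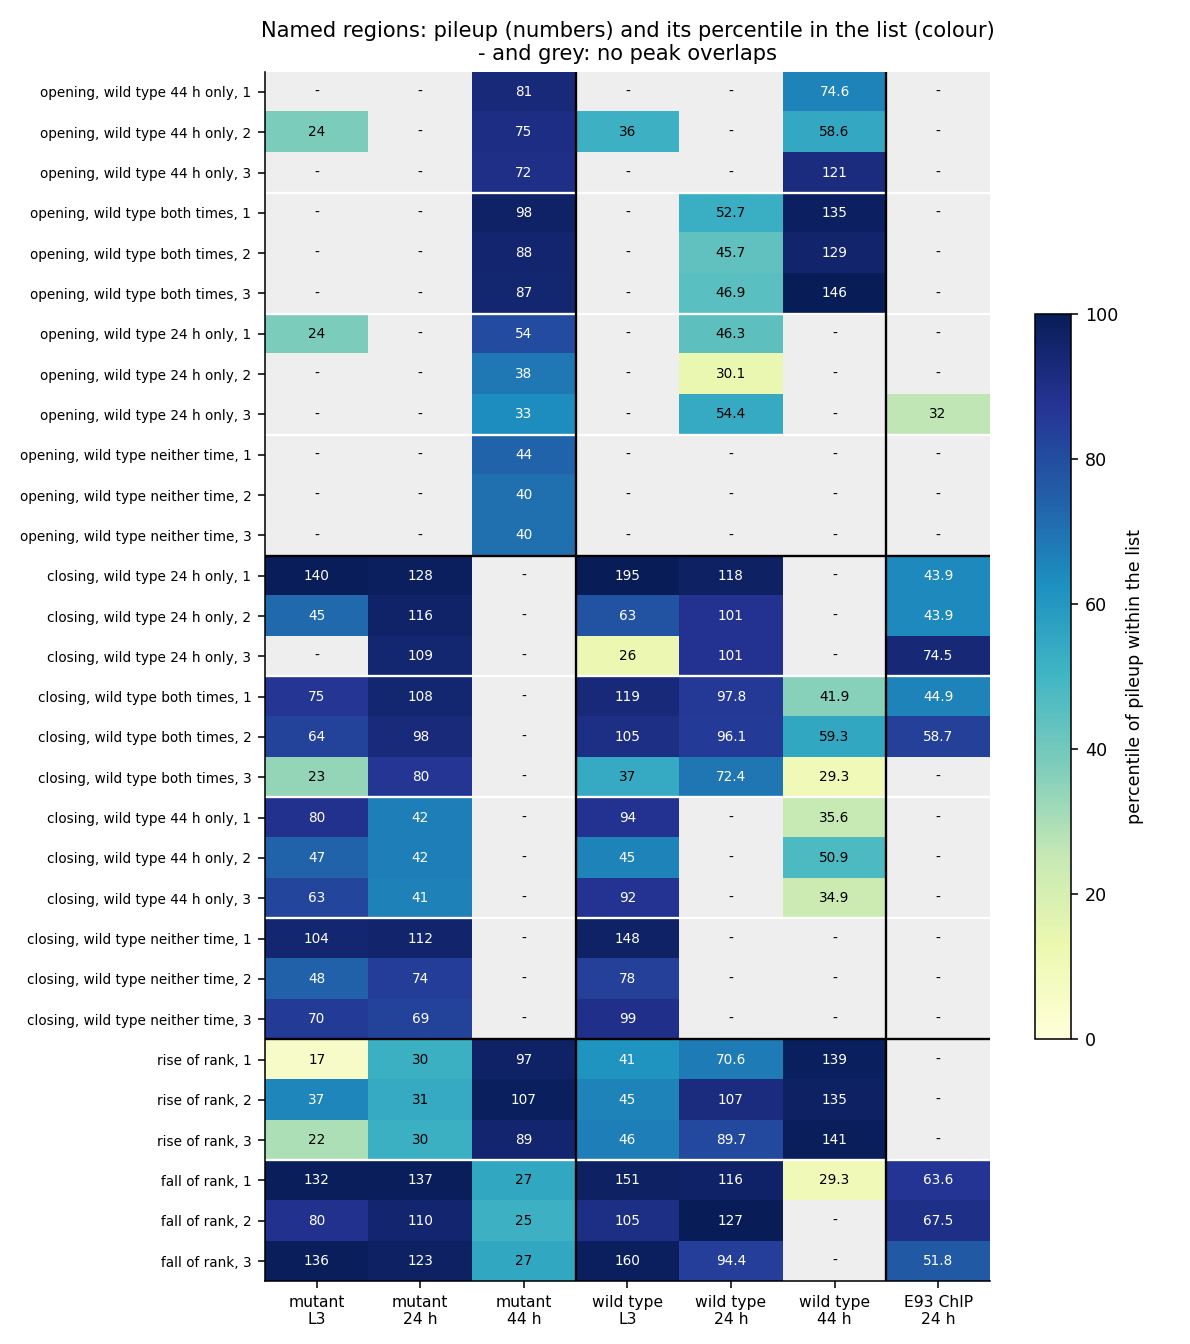
Pileup (numbers) and its percentile within the list (colour, 0 to 100) of the 30 named regions (rows, by rule) in the larva (L3) and at 24 h and 44 h in E93 mutant (left) and wild type (middle) and in E93 ChIP-seq at 24 h (right); grey with a dash marks no overlapping peak. Most late-closing regions were open at L3 and most late-opening ones were not, as at the leading late-closing site with 140 reads at L3 in the mutant.

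History at L3 separated the 2 kinds of change. A mutant L3 peak lay under 1550 of the 5072 late-opening peaks (30.6%, 29.3 to 31.9%), where the share over all 44 h mutant peaks was 73.1%. A mutant L3 peak lay under 4664 of the 8731 late-closing peaks (53.4%, 52.4 to 54.5%), where the share over all 24 h mutant peaks was 74.5%. In the strongest quartiles the shares were 29.1% (43 of 148) for late-opening and 88.8% (159 of 179) for late-closing peaks. Among strong peaks found at both times they were 95.04% at 44 h and 97.3% at 24 h. Most strong late-closing sites thus had a mutant L3 peak, though less often than strong 24 h peaks found at both times. No L3 peak in either genotype lay at 83 of the 148 strong late-opening sites (56.1%). Among strong 44 h peaks found at both times this held for 159 of 5590 (2.84%), and over all 44 h mutant peaks for 16.6%.

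E93 ChIP-seq peaks, measured at 24 h in wings with tagged E93, were rare at late-opening sites. They lay over 298 of 5072 late-opening peaks (5.88%, 5.24 to 6.56%), where the share over all 44 h mutant peaks was 29.0%. They lay over 886 of 8731 late-closing peaks (10.1%, 9.52 to 10.8%), where the share over all 24 h mutant peaks was 26.7%. In every group ChIP-seq peaks were more frequent the higher the pileup quartile. In the strongest quartiles 16 of 148 late-opening peaks (10.8%, 6.31 to 17.0%) and 126 of 179 late-closing peaks (70.4%, 63.1 to 77.0%) had a ChIP-seq peak, against 52.5% and 59.8% of the strong peaks found at both times.

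ChIP-seq peaks lay over only 56 of the 2396 mutant 44 h peaks with a wild-type peak at 44 h and none at 24 h (2.34%), so the shares were also taken over mutant peaks with a wild-type 24 h peak. Among strong ones, 14 of 99 late-opening peaks (14.1%, 7.95 to 22.6%) had a ChIP-seq peak, against 53.2% of the peaks found at both times. For late closing it was 125 of 171 (73.1%, 65.8 to 79.6%), against 60.1% of the peaks found at both times. The 2 groups of strong 44 h peaks differed in height at 24 h, the time of the ChIP-seq. With wild-type peaks at both times, their median 24 h percentiles were 45.2 for late-opening peaks and 87.8 for the others. By the same measure, weakest-quartile 24 h peaks found at both times stood at 41.1. Of those with a wild-type 24 h peak, 14.4% had a ChIP-seq peak. How much of the late-opening difference went with height was not tested. Of the 151 strong sites that closed late in both genotypes, 110 (72.8%) had a ChIP-seq peak, against 361 of the 483 strong sites (74.7%) that closed late in wild type but were called at both mutant times. Among strong sites with late closing in wild type, the ChIP-seq share thus lay close together whether or not the mutant closed.

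**Figure D4:**
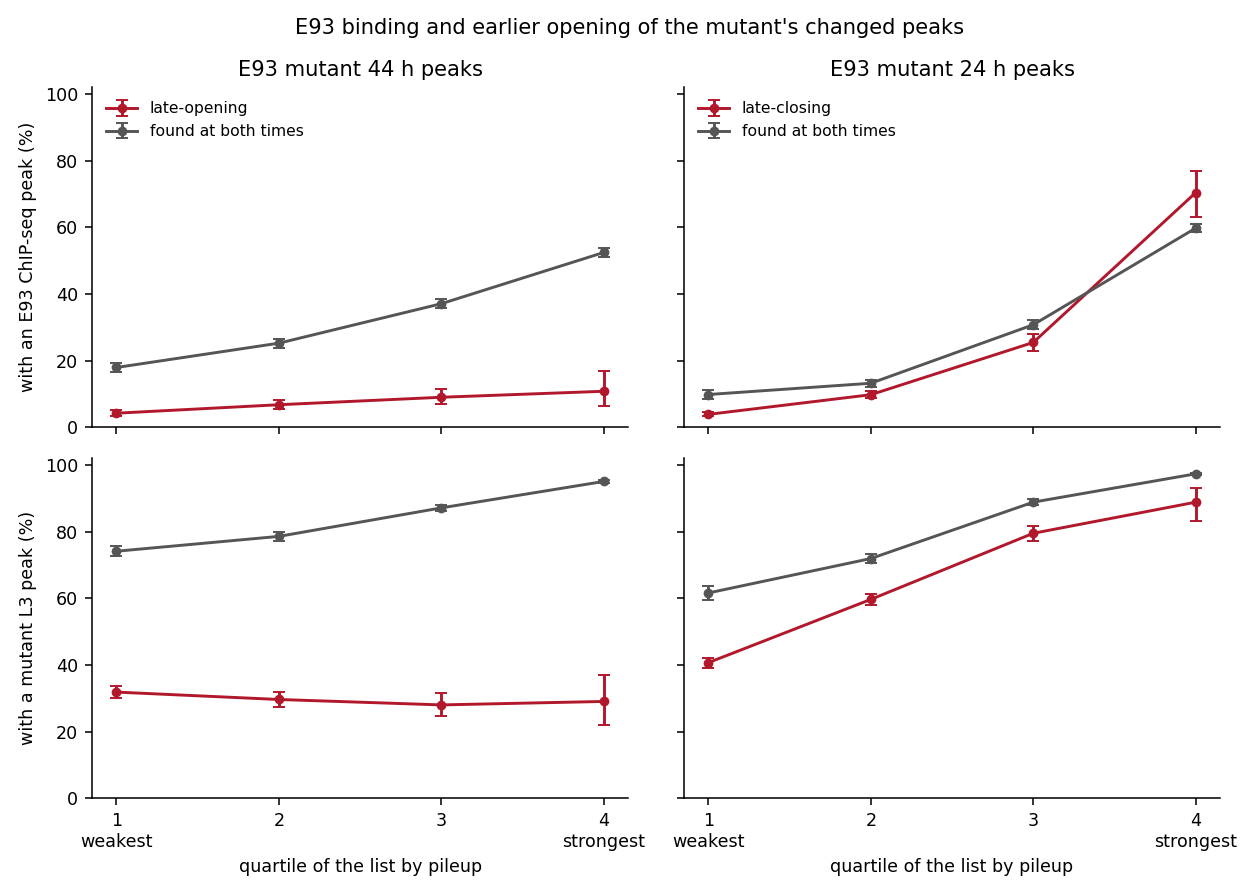
Share (y axis, percent) of mutant peaks with an E93 ChIP-seq peak (top) and with a mutant L3 peak (bottom), by quartile of the list by pileup (x axis), for late-opening 44 h peaks (left) and late-closing 24 h peaks (right) in red and peaks found at both times in grey; bars are exact 95% intervals. In the strongest quartile 10.8% of late-opening and 70.4% of late-closing peaks had a ChIP-seq peak.

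The reverse look-up started from the wild-type changes. Of the 8262 wild-type late-opening peaks, 1422 (17.2%) opened late in the mutant too, 792 (9.59%) had a mutant peak at both times, and 5578 (67.5%) had a mutant peak at neither time. Over all 28684 wild-type 44 h peaks these shares were 11.3%, 50.4% and 31.3%. Of the 9196 wild-type late-closing peaks, 2668 (29.0%) closed late in the mutant too, 1697 (18.5%) had a mutant peak at both times and 4518 (49.1%) at neither. These shares were 13.99%, 51.4% and 27.04% over all 29731 wild-type 24 h peaks. The mutant lists are shorter and shallower than the wild-type lists, which bears on the peaks found at neither time. The shared changes formed 31.1% and 31.7% of the mutant's changes and a smaller part of the wild type's.

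Strong wild-type changes were looked up in the same way. Of the 337 late-opening peaks in the strongest quartile of the wild-type 44 h list, 184 (54.6%) opened late in the mutant, 68 (20.2%) were called at both times and 83 (24.6%) at neither. Over all 7159 peaks of that quartile the shares were 8.84%, 87.1% and 3.05%. Of the 629 late-closing peaks in the strongest quartile of the wild-type 24 h list, 212 (33.7%, 30.0 to 37.5%) closed late in the mutant and 357 (56.8%, 52.8 to 60.7%) had a mutant peak at 44 h as well as at 24 h, while 50 (7.95%) had one at neither time. Over all 7404 peaks of that quartile the shares were 4.47%, 92.02% and 1.97%. An E93 ChIP-seq peak lay over 268 of the 357 (75.1%), over 150 of the 212 (70.8%) and over 19 of the 50 (38%), where the share over the whole quartile was 55.3%. The strong wild-type closures that had a mutant peak at both times and those that were shared with the mutant thus carried ChIP-seq peaks at shares that lay close together.

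Peaks called at both mutant times were then compared by height. Matched one to one, 16910 peaks were left, and their pileups had a Spearman correlation of 0.715 between the 2 lists, over peaks of 1 pooled list each. Scaled pileups were higher at 44 h by a median log2 difference of 0.33, which is a difference of the lists as a whole. At the depth of the 24 h list the highest 44 h peak would have had 342 reads, where the highest 24 h peak had 211 reads. Scaled ratios may therefore depend on height among the strongest peaks, which was not tested. Relative to this median, 1007 peaks (5.96%) were more than 2-fold higher at 44 h and 1152 (6.81%) more than 2-fold lower, and 14751 (87.2%) lay within 2-fold.

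The peaks that differed in height also differed in ChIP-seq and L3 overlap. The 1007 higher peaks had a median pileup of 55 reads at 44 h and 26 at 24 h, and 277 (27.5%) had an E93 ChIP-seq peak. The 1152 lower peaks had a median of 18 reads at 44 h and 67 at 24 h, and 754 (65.5%) had an E93 ChIP-seq peak, where the share over all matched peaks was 35.2%. A mutant L3 peak lay under 92.2% of the lower and 71.1% of the higher ones. Over all matched peaks it was 85.2%. The lower peaks were strong at 24 h, at a median percentile of 81.7. Of the strongest-quartile 24 h peaks found at both times, 59.8% had a ChIP-seq peak and 97.3% a mutant L3 peak. The higher peaks were strong at 44 h, at a median percentile of 80.9. Of the strongest-quartile 44 h peaks found at both times, 52.5% had a ChIP-seq peak and 95.04% a mutant L3 peak. At 24 h, the time of the ChIP-seq, the higher peaks stood at a median percentile of 42.9. Of the 24 h peaks found at both times in quartile 2, 13.2% had a ChIP-seq peak and 71.9% a mutant L3 peak. Whether the higher peaks have few or many ChIP-seq peaks for their height thus depends on the time at which height is taken. Of the lower peaks, 539 (46.8%) were over a wild-type peak at 24 h and none at 44 h, where the share over all matched peaks was 10.4%.

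Where wild type also had a peak at both times (13437 peaks), mutant and wild-type log2 changes had a Pearson correlation of 0.56 and a Spearman correlation of 0.51 across peaks, which are not independent replicates and share the genomic DNA control. Of the 906 peaks that were more than 2-fold higher in the mutant at 44 h, 776 (85.7%) were also above the wild-type median change. Of the 564 that were more than 2-fold lower, 507 (89.9%) were below the wild-type median change. The median change of the lower peaks was −0.92 in the mutant and −0.93 in wild type, against medians over all these peaks of 0.38 in the mutant and 0.15 in wild type. For the higher peaks it was 1.65 in the mutant and 0.76 in wild type. Peaks picked for a large mutant change have larger mutant values by that choice, so the sizes are a description.

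**Figure D5:**
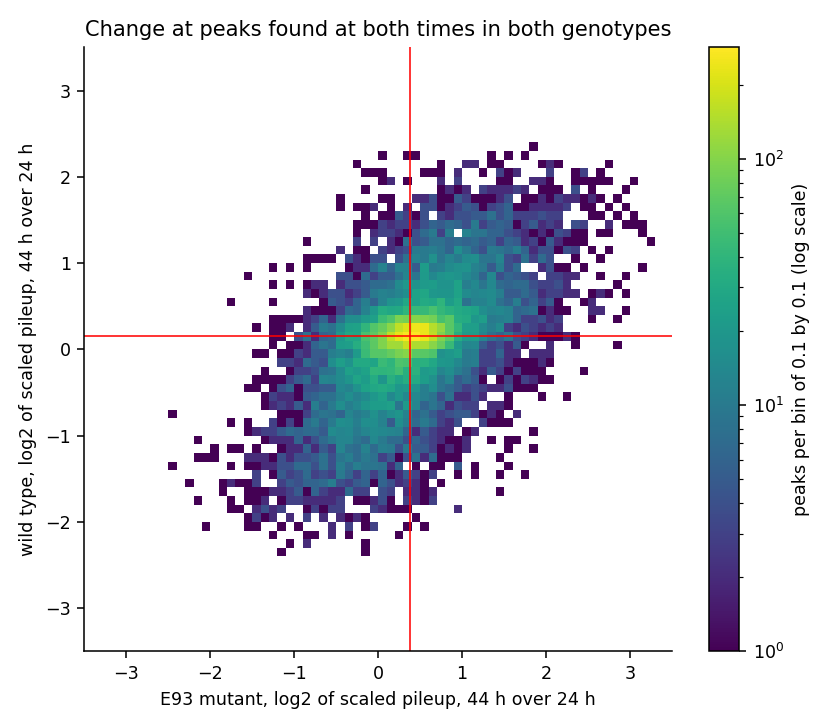
Log2 change of scaled pileup, 44 h over 24 h, in E93 mutant (x axis) and wild type (y axis) at the 13437 peaks found at both times in both genotypes; colour is the number of peaks per bin (log scale) and red lines are the medians. The cloud runs from lower left to upper right, with a Pearson correlation of 0.56.

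The largest rank differences among matched peaks in the upper 50% of both lists (8761 peaks) had the same order of times in wild type. The peak at chrX:10847595-10848269 had 97 reads at 44 h and 30 at 24 h in the mutant, a scaled ratio of 5.41 (95% interval 3.56 to 8.45 from counting error, the median shift of 0.33 in log2 not taken off). In wild type it had 139 at 44 h and 70.6 at 24 h. At chr3R:11251036-11252376 the mutant had 107 reads at 44 h and 31 at 24 h, with 135 at 44 h and 107 at 24 h in wild type. At chr2L:1911506-1911927 it had 89 reads at 44 h and 30 at 24 h, with 141 at 44 h and 89.7 at 24 h in wild type. None of the 3 had an E93 ChIP-seq peak. At chr3R:11251036-11252376 the wild-type peak was already among the strong ones of its 24 h list, at percentile 91.7, where the mutant peak was at 53.6.

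The 3 largest falls in rank were at larval sites with an E93 ChIP-seq peak. At chr2R:3033309-3033760 mutant pileup was 132 reads in the larva, 137 at 24 h and 27 at 44 h, a scaled ratio of 44 h over 24 h of 0.330 (0.210 to 0.501), given in the same way. Wild-type pileup was 151 in the larva, 116 at 24 h and 29.3 at 44 h. At chr2R:7448998-7449460 mutant pileup was 136 reads in the larva, 123 at 24 h and 27 at 44 h, where wild type had 160 in the larva, 94.4 at 24 h and no peak at 44 h. At chr3L:14344102-14344542 mutant pileup was 80 reads in the larva, 110 at 24 h and 25 at 44 h, and wild type had 105 in the larva, 127 at 24 h and no peak at 44 h. Their ChIP-seq pileups were 63.6, 51.8 and 67.5, in the same order. All 3 had a mutant peak at both times by the rule that chose them.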

How the data were processed

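The authors pooled the replicates of each condition and deposited 1 peak list per condition, on build dm3 per the submitters' processing notes, which name Bowtie2 2.2.8, SAMtools 1.3.1, Picard 2.2.4, bedtools 2.25.0 and MACS2 without their roles. In each list the authors give a pileup, which is a coverage signal at the summit, a fold enrichment, which is the ratio of pileup to local background, together with each peak's −log10 p and −log10 q. Mutant pileups are whole reads, and wild-type 44 h, 24 h and ChIP-seq pileups were scaled down by the authors' caller. The deposited control, 10135847 reads of genomic DNA from adult females, carries the authors' mapping score, which was not used to filter. Its reads reach past the furthest peaks on every arm, by up to 4.18 Mb on 3R, so they are on other coordinates than the peaks, and pileup was compared instead of fold enrichment. Names of all mutant L3 peaks refer to puparium formation where the label gives L3, and the label was followed.

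Peaks were matched by an overlap of 1 bp (Python 3.11.15, pandas 2.3.3), with matching tested on simulated lists. Background levels were computed back from pileup and fold enrichment with 1 added to each. Quartiles and deciles are by pileup, with ties kept together. Shares carry exact Clopper-Pearson 95% intervals (scipy 1.17.1), and no test across samples was possible with 1 pooled list per condition. The regions named were the 3 of highest pileup for each direction and wild-type pattern and the 3 with the largest rank difference each way, some of which are given by the plot of named regions alone. Members and lists were chosen with earlier results of these data known. Alternatives were a −log10 q of at least 10 in all lists or in the first list only, equal list sizes, an overlap of 50% of both peaks, summits within 250 bp and large arms only, with a gap of 500 bp and the strongest quartile added after seeing the data. No genome or annotation of the build was used, so regions carry no gene names or sequences.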

Additional observations from a re-analysis of the deposited data

Results flagged for a closer look

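A few mutant changes ran the other way in wild type by list, at shares below or close to those of all mutant peaks. Of the late-opening peaks, 337 (6.64%) overlapped a wild-type peak at 24 h and none at 44 h, against 10.1% of all 44 h mutant peaks, with a median pileup of 15 reads, against 16 over all late-opening peaks, and 1 of them was in the strongest quartile. That one, chr3R:9611575-9612407, had 54 reads at 44 h in the mutant and a wild-type 24 h pileup of 46.3. Of the late-closing peaks, 511 (5.85%) overlapped a wild-type peak at 44 h and none at 24 h, against 5.24% of all 24 h mutant peaks, with a median pileup of 19 reads, against 21 over all late-closing peaks, and 0 were in the strongest quartile. The difference between the genotypes was not tested, since each condition has 1 pooled list.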

How the results depend on the processing

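Large arms only left all 6 shares within their intervals. With a −log10 q of at least 10 in all lists, late-opening stayed within its interval at 22.1%, while late-closing was 28.5%, the same change in wild type 41.3% of late-opening and 43.0% of late-closing peaks, and ChIP-seq peaks 3.66% and 12.1%. With this limit in the first list only, these shares were 8.78% and 11.3% (late-opening and late-closing), 38.8% and 63.2% (same change in wild type), and 8.51% and 30.4% (ChIP-seq). With equal list sizes the late-opening and late-closing shares were 25.8% and 27.1%, the same change in wild type was 29.7% of late-closing peaks, and ChIP-seq peaks lay over 12.9% of late-closing peaks. With 50% overlap of both peaks they were 38.1% and 46.2%, the same change 24.6% and 28.5%, and ChIP-seq peaks lay over 8.35% of late-opening peaks. With summits at most 250 bp apart they were 26.7% and 36.2%, the same change 29.7% and 30.2%, and ChIP-seq 11.2% and 11.8%. With no peak of the other time within 500 bp they were 14.7% and 24.3%, the same change 33.1% of late-opening peaks, and ChIP-seq 4.50% and 8.32%. In the strongest quartile they were 2.58% and 2.72%, the same change 33.1% and 84.4%, and ChIP-seq 10.8% and 70.4%. In all, 37 of 48 values left the interval of the reported share. No paired analysis was possible because the replicates of each list had been pooled before deposit, so leaving single replicates out was not possible either. Depth limits weak peaks most, and the cause of the other differences was not tested.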
